A study of Mus musculus with 16 samples.

Results

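The genes described here are 50 genes of the cell division cycle, chosen by name, although with earlier results of these data known. Of these, 48 were among the 13733 genes listed for the knee joint libraries. Tyms and Uhrf1 were not analysed here. The 48 genes fall into 9 lists by the role of their products: proliferation markers (2 genes), cyclins and Cdk1 (6), cell cycle transcription factors (4), DNA replication licensing and fork (10), deoxynucleotide supply (3), mitotic kinases and chromosomal passenger complex (5), spindle checkpoint and anaphase-promoting complex (5), centromere and kinetochore (5), and spindle motors and cytokinesis (8). All 48 passed the filter on low values, at least 1 CPM in at least 4 of 16 libraries, and the lowest count behind any value was 40 reads, for Gins2.

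Bulk RNA sequencing was done on the knee joints, or per the study's methods on cells from them, of 16 male mice, 4 in each of 4 groups. WT mice were C57BL/6 and Trem2-/- mice carried a loss of Trem2, a receptor of macrophages and microglia, on the same background and in all cells that express it. The injured groups, WT D7 and Trem2-/- D7, had the anterior cruciate ligament of the right knee ruptured at 10 weeks of age by a single non-invasive compression of the tibia, and were collected 7 days later. WT D0 and Trem2-/- D0 were uninjured. The sample labels give an age of 16 weeks instead, and their extraction text is of whole joints, homogenised, from control and T1DM mice, with a TruSeq RNA kit, where the study's methods name isolated cells and a stranded mRNA kit. Which of these descriptions holds for these libraries is not given in the sources used here, so the levels may be those of isolated cells or of whole joint tissue. Whether cells positive for the leukocyte antigen CD45 were enriched for the bulk libraries is not given in the sources used here. Levels are CPM, read counts set against the total of each library and scaled by TMM factors that set each library relative to the others. In these bulk samples fewer cells of a type and less RNA per cell cannot be told apart.

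A dividing cell first copies its DNA in S phase and then separates the copies in mitosis. The MCM helicase is loaded at origins by factors such as Cdc6 and is driven by cyclin E, cyclin A and their kinase partners, and many of these S-phase genes are transcribed by E2F factors. Mitotic genes follow later, driven by Mybl2 and Foxm1, and their products condense chromosomes, build the spindle, check its attachment and cut the cell apart. RNA of both classes is high in tissue that holds dividing cells, such as the blood-forming precursors of the marrow and the repair tissue of an injured joint.

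Depth ran from 11567073 to 32867818 reads per library, and 3 reads corresponded to between 0.101 and 0.250 CPM. Trem2 itself (chr17:48346401-48354147, plus strand, GRCm38 as for all coordinates here) was measured at 2.51, 4.88, 5.26 and 5.61 CPM in WT D0 and at 1.88, 0.948, 2.68 and 1.699 in Trem2-/- D0, and at 15.1, 22.5, 18.9 and 10.7 in WT D7 and 4.13, 4.69, 3.42 and 4.84 in Trem2-/- D7. It was lower in every Trem2-/- mouse than in every WT mouse at D7 and overlapped at D0, and residual reads were counted in all 8 Trem2-/- libraries. By the summed level of the cell cycle genes, described next, uninjured WT replicates 1 and 2 were the lowest and the highest of their group. Uninjured Trem2-/- replicates 1 and 3 had the higher sums of theirs. Counts of genes changed with injury are given with and without these mice, and most single-gene values with all mice.

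The uninjured mice differed widely among themselves in cell cycle gene expression, and nearly all of the genes moved together from mouse to mouse. Summed over the 48 genes, the level was 1424, 4546, 2606 and 2139 CPM in the 4 WT D0 mice and 3019, 1791, 3961 and 1893 in the 4 Trem2-/- D0 mice. After injury the sums were 1865, 1926, 1629.5 and 1337 CPM in WT D7 and 1214, 1529, 1514 and 1401 in Trem2-/- D7. The highest WT D0 mouse was therefore 3.19-fold above the lowest, against 1.44-fold in WT D7, 2.21-fold in Trem2-/- D0 and 1.26-fold in Trem2-/- D7. The WT D7 sums overlapped the low end of WT D0, and the Trem2-/- D7 sums lay below all Trem2-/- D0 sums. WT D0 replicate 2 was the highest of its group for 48 of 48 genes and replicate 1 the lowest for 47, and Trem2-/- D0 replicate 3 was the highest of its group for 48 of 48. The median SD of a cell cycle gene on the log2 scale was 0.783 in WT D0 and 0.641 in Trem2-/- D0, where all 13173 genes tested had medians of 0.274 and 0.238. After injury the medians were 0.314 in WT D7 and 0.183 in Trem2-/- D7, against 0.208 and 0.135 over all genes.

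**Figure D1:**
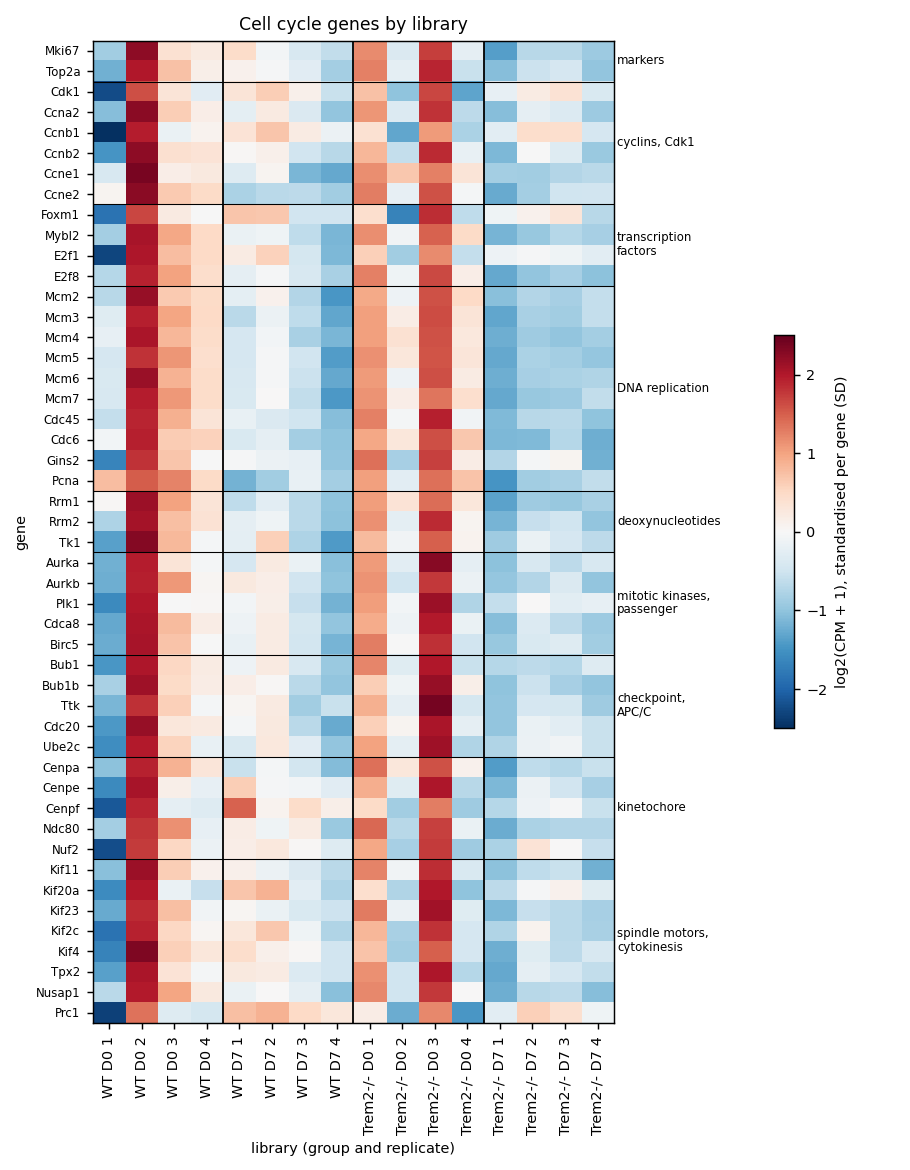
Level of each of the 48 cell cycle genes (rows, in 9 role lists) in each of the 16 libraries (columns, by group and replicate), as log2(CPM + 1) standardised per gene over the 16 libraries, in SD units from blue (low) to red (high). WT D0 replicate 2 and Trem2-/- D0 replicate 3 are red for 48 of 48 genes, WT D0 replicate 1 is the lowest of its group for 47, and most replication and deoxynucleotide rows are blue in the Trem2-/- D7 columns.

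Injury was followed by lower levels of S-phase genes in both genotypes. In the test used throughout (limma on log2(CPM + 1), with the 4 groups in 1 fit), a gene was called at an unadjusted p under 0.05 with the higher level more than 25% above the lower on the linear scale, the study's rule. P-values adjusted by the Benjamini-Hochberg method over all 13173 genes are given beside it. A gene is said to have fallen or risen only where its adjusted p was under 0.05. For D7 vs D0 in WT, 15 of 48 genes were called lower and 0 higher, where 18.2% of all genes tested were called lower and 19.3% higher. In Trem2-/- mice, 28 of 48 were called lower and 0 higher, against 27.9% and 26.5% of all genes. By adjusted p, 9 genes fell in WT (12.6% of all genes did) and 22 in Trem2-/- (27.2%). The 9 were Ccne2, Mcm3, Mcm4, Mcm5, Mcm6, Mcm7, Cdc6, Pcna and Rrm1, each of which also fell in Trem2-/-. The median log2 fold change of the 48 genes was -0.45 in WT and -0.77 in Trem2-/-, and over all genes it was -0.04 in each. The D7 mice lay below the D0 mice without overlap for 4 genes in WT, Ccne2, Cdc6, Pcna and Rrm1, and for 25 in Trem2-/-, where 9.34% and 26.3% of all genes did. The WT count was a share near that of all genes.

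These counts leaned on single mice. In WT, leaving out D0 replicate 1 raised the number called lower to 29, and leaving out D7 replicate 4 lowered it to 9, where 20.6% and 15.4% of all genes were called lower in the same fits. The number that fell by adjusted p rose to 19 when D0 replicate 1 was left out, against 16.5% of all genes. It dropped to 3 for D0 replicate 2, to 5 for D0 replicate 3 and to 4 for D7 replicate 4, each left out alone, where 6.30%, 5.02% and 7.57% of all genes fell. The first and the last of these 3 counts were shares near that of all genes. Cdc6, Pcna and Rrm1 passed in all 8 fits that left out 1 WT mouse. Without both WT D0 replicates 1 and 2, 16 genes were called lower and 8 had an adjusted p under 0.05, against 14.7% and 5.61% of all genes. In Trem2-/-, leaving out D0 replicate 3 gave 18 genes called lower and 13 with an adjusted p under 0.05 (26.4% and 24.1% of all genes), and leaving out D7 replicate 1 gave 14 of the latter (23.7%). These 13 and 14 of 48 were near the share of all genes. Mcm3, Mcm4, Mcm5, Mcm6, Mcm7, Cdc45, Cdc6, Pcna, Rrm1, Ccne1, Mybl2, E2f8 and Cenpa passed the adjusted test in all 8 fits that left out 1 Trem2-/- mouse. Without both Trem2-/- D0 replicates 1 and 3, 8 genes were called lower (E2f8, Mcm3, Mcm4, Mcm5, Mcm7, Cdc6, Pcna and Rrm1), 1 was called higher (Prc1), and 5 fell by adjusted p (Mcm4, Mcm5, Cdc6, Pcna and Rrm1). Of all genes, 24.3% were called lower and 22.1% higher in that fit and 19.8% fell by adjusted p. Without these mice a smaller share of the cell cycle genes than of all genes was called lower. These mice had the highest sums of the same genes in their group, so leaving them out was bound to shrink the change. No conclusion is drawn from that fit. The WT pair left out together held the highest and the lowest sum of its group.

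The licensing and fork genes gave the most calls, 9 of 10 lower in each genotype, with a median log2 fold change of -0.93 in WT and -1.15 in Trem2-/-. The share of all genes called lower was 18.2% in WT and 27.9% in Trem2-/-. Cdc6 (chr11:98907801-98923940, plus strand), which loads the MCM helicase onto origins, was at 17.5, 60.5, 27.1 and 26.3 CPM in WT D0 and 14.4, 15.97, 10.7 and 9.62 in WT D7. In Trem2-/- mice it was at 33.3, 21.8, 49.2 and 27.9 CPM at D0 and 9.004, 9.097, 11.8 and 8.34 at D7. Every D7 mouse was below every D0 mouse of its genotype, WT D0 replicate 1 being the lowest uninjured mouse. Cdc6 fell by a log2 fold change of -1.19 (SE 0.30, adjusted p = 0.0117) in WT and -1.64 (SE 0.30, adjusted p = 0.000444) in Trem2-/-, from means of 32.8 ± 18.9 to 12.7 ± 3.002 CPM and from 33.04 ± 11.8 to 9.55 ± 1.51 CPM (SD, n = 4 mice per group).

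Pcna (chr2:132249162-132253314, minus strand), the sliding clamp that holds DNA polymerase on its template, varied least among uninjured WT mice. It was measured at 267, 315, 295 and 249 CPM in WT D0 and 171, 183, 215 and 185 in WT D7, and at 282, 211, 305 and 263 in Trem2-/- D0 and 160.5, 184, 186 and 195 in Trem2-/- D7. The D7 mice were below the D0 mice without overlap in both genotypes, and WT D0 replicate 1 was not the lowest of its group here. The log2 fold change was -0.58 (SE 0.12, adjusted p = 0.00444) in WT and -0.54 (SE 0.12, adjusted p = 0.002) in Trem2-/-. A share of 13.9% of the 75-base stretches of Pcna transcripts also occurs in other genes, mostly the copy Pcna-ps2, so some reads could have been split or lost in counting.

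All 6 subunits of the MCM helicase, which unwinds the DNA ahead of the fork, were called lower in both genotypes. Mcm5 (chr8:75109569-75128439, plus strand) was at 48.3, 170.1, 114 and 77.3 CPM in WT D0 and 48.2, 60.2, 46.8 and 27.5 in WT D7, and at 117, 71.6, 148 and 72.6 in Trem2-/- D0 and 29.3, 38.9, 37.7 and 35.2 in Trem2-/- D7. WT D0 replicate 1 lay within the WT D7 range, whereas the Trem2-/- groups did not overlap. Its log2 fold change was -1.05 (SE 0.33, adjusted p = 0.0296) in WT and -1.45 (SE 0.33, adjusted p = 0.00213) in Trem2-/-. Over the 6 subunits the log2 fold changes ran from -1.05 to -0.76 in WT, where Mcm2 alone missed 0.05 (adjusted p = 0.0707). They ran from -1.45 to -0.91 in Trem2-/-, where all 6 fell. Cdc45, a partner of the MCM helicase at the fork, was called lower in both genotypes. By adjusted p it fell in Trem2-/- only, with a log2 fold change of -1.11 (SE 0.33, adjusted p = 0.0105), a difference between genotypes that was tested with the others further on. Gins2, a subunit of the same fork complex, was not called in either (adjusted p = 0.541 and 0.171). Of its annotated exon bases, 67.3% also lie in Gse1 on the opposite strand, and since no source used here says whether counting used strand, its reads are uncertain.

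Of the genes for deoxynucleotide supply, Rrm1 and Rrm2, the subunits of ribonucleotide reductase, were called lower in both genotypes, and Tk1, thymidine kinase, was called in neither. Rrm1 (chr7:102441695-102469771, plus strand) was at 111, 243, 160.4 and 124 CPM in WT D0 and 86.6, 99.971, 85.5 and 75.8 in WT D7, and at 163, 125, 185 and 122 in Trem2-/- D0 and 66.9, 78.98, 77.3 and 81.1 in Trem2-/- D7. Neither genotype's groups overlapped, and WT D0 replicate 2 was far the highest. The log2 fold change of Rrm1 was -0.81 (SE 0.20, adjusted p = 0.00989) in WT and -0.94 (SE 0.20, adjusted p = 0.00124) in Trem2-/-. Rrm2 fell in Trem2-/- by a log2 fold change of -1.14 (SE 0.38, adjusted p = 0.0212) and had -0.83 (SE 0.38, adjusted p = 0.11) in WT. Tk1 had adjusted p-values of 0.286 and 0.141, although its Trem2-/- groups did not overlap.

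**Figure D2:**
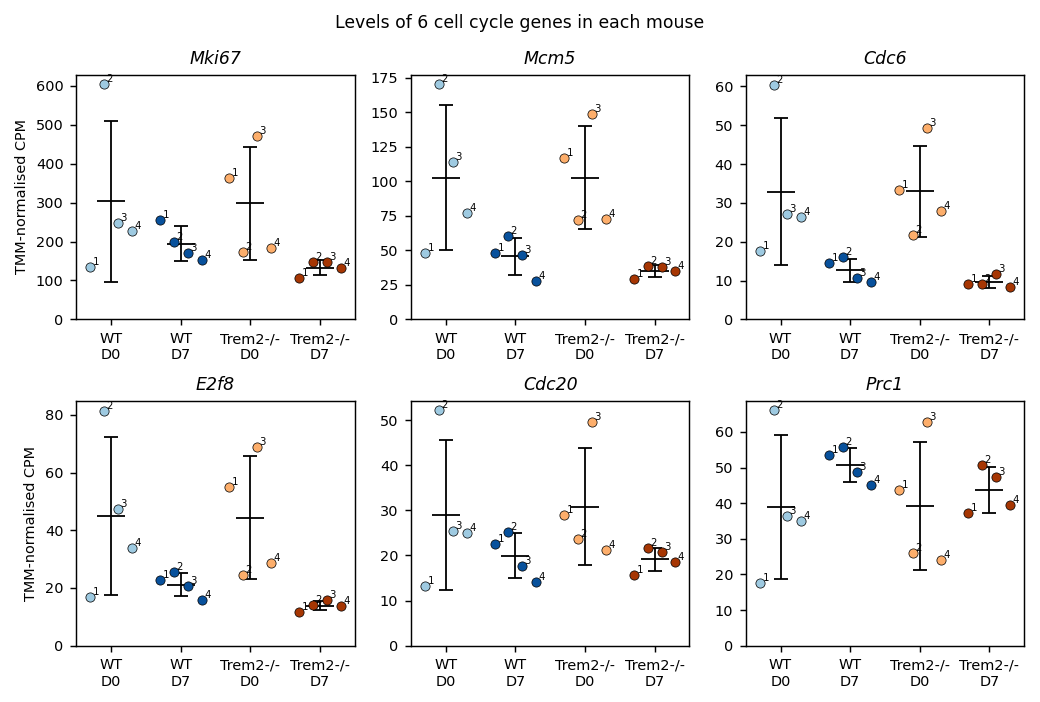
TMM-normalised CPM of Mki67, Mcm5, Cdc6, E2f8, Cdc20 and Prc1 in each of the 16 mice (points, with replicate numbers), with the mean and SD of each group of 4 (black bars). The Cdc6 points of both D7 groups lie below all D0 points of their genotype, the Prc1 points of the D7 groups lie within the D0 ranges, and the Mki67 and E2f8 points of Trem2-/- D7 lie below those of WT D7.

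The proliferation markers were not called in WT. Mki67 (chr7:135689784-135716361, minus strand), which coats chromosomes in dividing cells, was at 135, 604, 247 and 228 CPM in WT D0 and 256, 199, 169.7 and 153 in WT D7. In Trem2-/- mice it was at 364, 172, 472 and 184 CPM at D0 and 105, 147, 148 and 132 at D7. The WT D7 mice lay inside the WT D0 range, and the Trem2-/- D7 mice lay below all Trem2-/- D0 mice. The log2 fold change of Mki67 was -0.45 (SE 0.38, adjusted p = 0.387) in WT and -1.04 (SE 0.38, adjusted p = 0.0331) in Trem2-/-. The latter no longer passed by adjusted p without Trem2-/- D0 replicate 1 or 3 or without Trem2-/- D7 replicate 1 or 4. Top2a (chr11:98992943-99024189, minus strand), the topoisomerase that untangles sister chromosomes, was at 73.5, 294, 171 and 132 CPM in WT D0, 130.4, 123, 109 and 85.4 in WT D7, 214, 112, 284 and 97.5 in Trem2-/- D0 and 78.1, 98.00, 103 and 80.7 in Trem2-/- D7. Its groups overlapped in both genotypes, with log2 fold changes of -0.43 (SE 0.37, adjusted p = 0.386) in WT and -0.84 (SE 0.37, adjusted p = 0.0648) in Trem2-/-.

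Among the cyclins, both E-type cyclins, which start S phase, were called lower in each genotype, and Cdk1 and the A and B cyclins, which act from S phase into mitosis, were not called in either. Ccne1 (chr7:38097984-38107534, minus strand) was at 10.5, 31.3, 13.2 and 13.6 CPM in WT D0 and 10.8, 12.7, 7.69 and 7.31 in WT D7, and at 19.5, 16.1, 20.3 and 14.1 in Trem2-/- D0 and 8.701, 8.61, 9.18 and 9.34 in Trem2-/- D7. WT D0 replicate 2 was far above the other 3 WT D0 mice, of which replicate 1 lay inside the WT D7 range. The Trem2-/- groups did not overlap. The log2 fold change of Ccne1 was -0.68 (SE 0.26, adjusted p = 0.058) in WT and -0.88 (SE 0.26, adjusted p = 0.00945) in Trem2-/-. Ccne2 fell in both, by -0.73 (SE 0.21, adjusted p = 0.0202) in WT and -0.65 (SE 0.21, adjusted p = 0.0184) in Trem2-/-, and 17.4% of its exon bases are shared with Ints8 on the opposite strand.

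Ccna2 (chr3:36564865-36572150, minus strand), cyclin A2, was at 26.7, 115, 56.4 and 46.1 CPM in WT D0, 38.7, 47.6, 36.6 and 27.6 in WT D7, 69.96, 37.02, 94.8 and 32.3 in Trem2-/- D0 and 26.8, 39.1, 36.9 and 28.7 in Trem2-/- D7. The D0 and D7 groups overlapped in both genotypes, and the log2 fold changes were -0.52 (SE 0.38, adjusted p = 0.308) and -0.69 (SE 0.38, adjusted p = 0.133). Cdk1, the kinase that starts mitosis, had nearly the same mean at both times, 28.4 ± 14.4 and 28.4 ± 4.69 CPM in WT and 29.7 ± 14.6 and 27.1 ± 3.28 CPM in Trem2-/-. The 95% intervals of its log2 fold change, -0.60 to 0.86 in WT and -0.74 to 0.72 in Trem2-/-, still reached past that fold in both directions.

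Of the 4 transcription factors, E2f8 and Mybl2 were called lower and E2f1 and Foxm1 were not. E2f8 (chr7:48866429-48881596, minus strand), a repressor of E2F targets that is itself made in S phase, was at 16.97, 81.4, 47.4 and 33.8 CPM in WT D0 and 22.6, 25.4, 20.5 and 15.9 in WT D7, and at 55.04, 24.4, 69.01 and 28.7 in Trem2-/- D0 and 11.8, 14.2, 15.7 and 13.8 in Trem2-/- D7. All WT D7 mice lay below 3 of the WT D0 mice, and 3 of them lay above WT D0 replicate 1. Every Trem2-/- D7 mouse was below every Trem2-/- D0 mouse. The log2 fold change was -0.86 (SE 0.38, adjusted p = 0.0968) in WT and -1.49 (SE 0.38, adjusted p = 0.00435) in Trem2-/-. Mybl2, the B-Myb activator of genes for late S phase and mitosis, was called lower in both, with log2 fold changes of -0.85 (SE 0.34, adjusted p = 0.0742) and -1.20 (SE 0.34, adjusted p = 0.00862).

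Foxm1 (chr6:128362967-128376146, plus strand), the forkhead activator of mitotic genes, was at 17.3, 51.5, 32.96 and 30.7 CPM in WT D0, 38.1, 37.9, 26.6 and 26.5 in WT D7, 35.1, 18.3, 54.2 and 25.4 in Trem2-/- D0 and 29.9, 31.8, 33.8 and 24.9 in Trem2-/- D7. The groups overlapped throughout, and the log2 fold changes were 0.04 (SE 0.31, adjusted p = 0.933) in WT and -0.04 (SE 0.31, adjusted p = 0.925) in Trem2-/-, values near 0 whose sign changed between settings. E2f1, an activator of S-phase genes, was not called either (adjusted p = 0.659 in WT and 0.826 in Trem2-/-).

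Of the 23 genes in the 4 mitotic lists, 0 were called in WT and 11 were called lower in Trem2-/-, 6 of them with an adjusted p under 0.05. Of all genes tested, 18.2% were called lower and 19.3% higher in WT. In Trem2-/-, 27.9% were called lower and 27.2% fell by adjusted p, so the 6 of 23 were near the share of all genes. The same shares stand beside the counts of each mitotic list below. The median log2 fold change over the 23 was -0.34 in WT and -0.75 in Trem2-/-, against -0.83 and -1.13 over the 13 genes for replication and deoxynucleotides. The mitotic kinases and passenger proteins gave 0 calls in WT and 4 of 5 in Trem2-/- (Aurka, Aurkb, Cdca8 and Birc5), none with an adjusted p under 0.05. Cdca8 (chr4:124918465-124939311, minus strand), borealin of the chromosomal passenger complex, was at 12.5, 61.4, 34.1 and 25.5 CPM in WT D0, 21.9, 25.9, 18.96 and 14.6 in WT D7, 36.4, 21.98, 59.6 and 21.5 in Trem2-/- D0 and 13.9, 19.8, 17.1 and 15.01 in Trem2-/- D7. The Trem2-/- groups did not overlap, while the WT D7 mice lay inside the WT D0 range, and the log2 fold changes were -0.51 (SE 0.38, adjusted p = 0.324) in WT and -0.93 (SE 0.38, adjusted p = 0.0528) in Trem2-/-.

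In the spindle checkpoint list, Bub1b and Ttk were called lower in Trem2-/- and 0 genes in WT. Bub1b (chr2:118598211-118641591, plus strand), the BubR1 checkpoint protein, was at 17.6, 63.9, 31.2 and 27.3 CPM in WT D0, 27.2, 25.5, 18.6 and 16.2 in WT D7, 33.2, 24.1, 66.03 and 27.03 in Trem2-/- D0 and 15.99, 19.8, 17.4 and 16.2 in Trem2-/- D7. All Trem2-/- D7 mice were below the Trem2-/- D0 mice, of which replicate 3 was far the highest, and the log2 fold changes were -0.53 (SE 0.33, adjusted p = 0.235) in WT and -0.96 (SE 0.33, adjusted p = 0.0244) in Trem2-/-. Cdc20 and Ube2c, the activator and the E2 enzyme of the anaphase-promoting complex, were not called in either genotype, with D7 means of 19.9 ± 4.98 and 22.2 ± 4.87 CPM in WT (SD, n = 4).

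Among centromere and kinetochore genes, Cenpa and Ndc80 fell in Trem2-/- and 0 of 5 were called in WT. Cenpa (chr5:30666777-30674830, plus strand), the centromeric form of histone H3, was at 24.6, 64.4, 45.9 and 38.1 CPM in WT D0, 28.7, 33.9, 29.8 and 24.2 in WT D7, 53.9, 37.8, 57.8 and 35.8 in Trem2-/- D0 and 21.9, 27.98, 27.3 and 28.8 in Trem2-/- D7. Its Trem2-/- groups did not overlap, and the log2 fold changes were -0.48 (SE 0.23, adjusted p = 0.122) in WT and -0.76 (SE 0.23, adjusted p = 0.0119) in Trem2-/-. Cenpe, Cenpf and Nuf2 were called in neither genotype, and Cenpf and Nuf2 had higher means at D7 than at D0 in WT.

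In the list of spindle motors and cytokinesis genes, Kif11, Kif23 and Nusap1 fell in Trem2-/-, and 0 of 8 genes were called in WT. Kif11 (chr19:37376403-37421859, plus strand), the Eg5 motor that pushes the spindle poles apart, was at 27.4, 114, 57.8 and 45.97 CPM in WT D0, 46.7, 41.2, 37.5 and 32.5 in WT D7, 76.8, 42.4, 101 and 37.1 in Trem2-/- D0 and 27.7, 33.1, 34.2 and 25.4 in Trem2-/- D7. Its log2 fold changes were -0.45 (SE 0.35, adjusted p = 0.344) and -0.96 (SE 0.35, adjusted p = 0.0325). Nusap1 (chr2:119618298-119651244, plus strand), a spindle-associated microtubule binder, was at 16.9, 70.4, 41.5 and 28.1 CPM in WT D0, 22.4, 24.6, 21.8 and 13.9 in WT D7, 46.7, 18.6, 62.98 and 24.7 in Trem2-/- D0 and 12.5, 16.9, 17.2 and 13.7 in Trem2-/- D7. Its log2 fold changes were -0.74 (SE 0.39, adjusted p = 0.158) and -1.14 (SE 0.39, adjusted p = 0.0218). For both genes the Trem2-/- groups were separate and the WT D7 mice lay within the WT D0 range, except that WT D7 replicate 4 was below it for Nusap1. Kif11, Kif23, Nusap1, Bub1b and Ndc80 were among the genes that lost their adjusted p under 0.05 when Trem2-/- D0 replicate 3 was left out.

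Prc1 (chr7:80294450-80316259, plus strand), which bundles the midzone microtubules on which the dividing cell is pinched, went the other way in its means and is given because of its values. It was at 17.6, 66.3, 36.5 and 34.97 CPM in WT D0, 53.5, 55.7, 48.9 and 45.1 in WT D7, 43.6, 26.2, 62.7 and 24.2 in Trem2-/- D0 and 37.1, 50.7, 47.3 and 39.5 in Trem2-/- D7. The D7 mice of both genotypes lay within the D0 ranges, above 3 of the 4 uninjured mice in WT, and the log2 fold changes were 0.52 (SE 0.32, adjusted p = 0.231) and 0.25 (SE 0.32, adjusted p = 0.538). It was 1 of 7 genes with a higher mean at D7 in WT, the others being Cdk1, Ccnb1, Foxm1, Cenpf, Nuf2 and Kif20a, and in Trem2-/- only Ccnb1 and Prc1 had one. Without WT D0 replicate 2, Cenpf and Prc1 were called higher in WT, as were 16.0% of all genes. Reads of Prc1 and Kif20a could include those of Rccd1 and Cdc23, which share 11.1% and 29.3% of their exon bases on the opposite strand. The same holds for Ube2c with Tnnc2 (22.8%), Kif4 with Pdzd11 (15.1%), Ccna2 with Exosc9 (12.5%) and E2f8 with Gm2788 (11.2%). In Ccnb1 and Mybl2, 18.9% and 17.1% of the 75-base stretches occur in other genes.

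**Figure D3:**
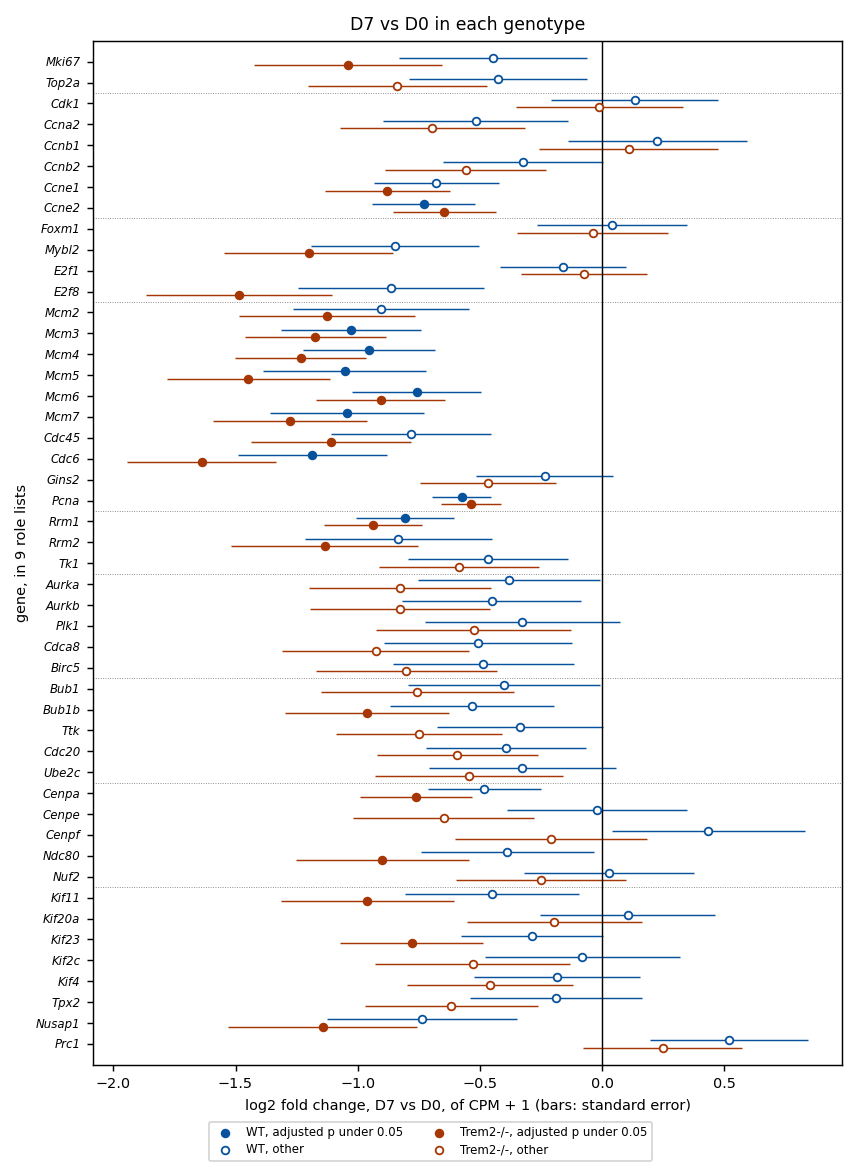
Log2 fold change for D7 vs D0 of each of the 48 genes, by role list (dotted lines), in WT (blue) and Trem2-/- (brown), with its standard error from limma, filled where the adjusted p was under 0.05. Filled points for WT are limited to S-phase genes and Ccne2, 9 in all, and 22 points are filled for Trem2-/-.

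Because the total of cell cycle RNA differed so much between mice, the balance of S-phase and mitotic RNA was also taken within each library. The summed CPM of the 13 replication and deoxynucleotide genes divided by that of the 23 mitotic genes was 2.62, 1.598, 1.900 and 1.89 in WT D0 and 1.18, 1.36, 1.39 and 1.32 in WT D7. In Trem2-/- mice it was 1.63, 1.88, 1.39 and 2.202 at D0 and 1.43, 1.29, 1.35 and 1.54 at D7. All WT D7 mice were below all WT D0 mice, the highest ratio being that of WT D0 replicate 1, and the Trem2-/- groups overlapped through D0 replicate 3. Pcna supplied a mean of 282 ± 29.3 CPM (SD, n = 4) to the S-phase sum in WT D0, which averaged 1236 CPM over the 13 genes. In Trem2-/- mice it supplied a mean of 265 ± 40.1 of 1185 CPM at D0 and 181 ± 14.7 of 584 CPM at D7. The ratio was not taken without Pcna. The ratio of Mcm3 to Prc1, a single pair, did not overlap between D0 and D7 in either genotype. It was 2.33 to 3.13 in WT D0 and 0.741 to 1.07 in WT D7. In Trem2-/- mice it was 2.26 to 3.08 at D0 and 0.844 to 1.21 at D7. Prc1 was the gene least like the rest over the 16 libraries.

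The promoters of S-phase and mitotic genes were searched for motifs of cell cycle factors. RefSeq windows of 300 bases (GRCm38.p6, 250 before to 50 after the start) were found for 40 of the 48 genes and searched on both strands for CCAAT, the NF-Y box, and for TTTGAA, the cell cycle homology region. They were also searched for TTCCCGC, for TTGGCGC and for TTCGCGC, all called E2F-like. An E2F-like match stood in 6 of 11 S-phase windows (Mcm3, Mcm5, Mcm6, Mcm7, Cdc6 and Rrm1) and in 0 of 20 mitotic ones, against 8.07% of all 32851 windows. TTTGAA stood in 2 of 11 S-phase and 15 of 20 mitotic windows, against 17.9% of all, and CCAAT in 9 of 11 and 15 of 20, against 37.4%. The 250 bases that precede the start are shown for a pair of helicase subunits that fell in both genotypes and for Cdc20 of the mitotic lists and Ccnb2, a cyclin of mitosis from the cyclin list, which were not called in either. Capitals mark the matches, and a match on the other strand is printed as its complement, so that CCAAT reads as ATTGG. In Mcm5, the E2F-like matches on the 2 strands overlap.

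Mcm5 (chr8:75109259-75109508, plus strand): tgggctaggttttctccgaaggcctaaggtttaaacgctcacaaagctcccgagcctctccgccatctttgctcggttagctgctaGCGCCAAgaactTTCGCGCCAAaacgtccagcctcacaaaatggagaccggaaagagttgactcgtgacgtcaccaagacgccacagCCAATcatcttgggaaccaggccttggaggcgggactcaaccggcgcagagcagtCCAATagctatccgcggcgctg
Mcm7 (chr5:138171884-138172133, minus strand): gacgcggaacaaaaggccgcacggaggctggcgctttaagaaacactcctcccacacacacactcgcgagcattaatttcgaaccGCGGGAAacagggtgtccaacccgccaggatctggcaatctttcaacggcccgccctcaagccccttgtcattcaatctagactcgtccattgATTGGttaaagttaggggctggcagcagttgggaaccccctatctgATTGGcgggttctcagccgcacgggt
Cdc20 (chr4:118437344-118437593, minus strand): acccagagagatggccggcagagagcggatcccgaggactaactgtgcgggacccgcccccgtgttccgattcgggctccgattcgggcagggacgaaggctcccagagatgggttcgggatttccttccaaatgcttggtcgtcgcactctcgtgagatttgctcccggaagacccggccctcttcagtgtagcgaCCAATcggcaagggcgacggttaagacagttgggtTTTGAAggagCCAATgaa
Ccnb2 (chr9:70421555-70421804, minus strand): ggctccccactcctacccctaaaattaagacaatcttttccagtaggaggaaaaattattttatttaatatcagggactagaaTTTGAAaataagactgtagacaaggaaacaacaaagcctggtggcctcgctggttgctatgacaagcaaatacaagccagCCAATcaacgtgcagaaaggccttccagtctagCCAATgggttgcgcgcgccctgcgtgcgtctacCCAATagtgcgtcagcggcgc

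The Mcm5 window had 3 E2F-like matches and 2 CCAAT, that of Mcm7 had 1 and 2, that of Cdc20 had TTTGAA between 2 CCAAT close to the start, and that of Ccnb2 had 3 CCAAT and a TTTGAA 167 bases before the start. Mcm7 shares 7.25% of its exon bases with Ap4m1 on the opposite strand and 9.49% of its 75-base stretches with other genes.

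Loss of Trem2 was compared with WT at D7 and at D0. In the fit over all 4 groups, 0 of 48 genes were called at D7 and 0 at D0, where 5.72% and 2.15% of all genes were. With an unadjusted p under 0.05 the count was also 0 by limma, edgeR, voom and DESeq2, where 7.27% of all genes passed at D7 and 2.92% at D0 by limma. At D7, 46 of the 48 had a lower mean in Trem2-/- (E2f1 and Plk1 did not), with a median log2 fold change of -0.21 against 0.01 over all genes. When only the 8 D7 libraries entered the fit, so that the wide spread of the uninjured mice no longer set the error, 8 genes were called lower and 0 higher, where 6.79% of all genes were called lower and 3.58% higher. The 8 were Mki67, E2f8, Cenpe, Cenpf, Ndc80, Kif11, Kif4 and Nusap1. No adjusted p of a cell cycle gene was under 0.05 in that fit, the lowest being 0.136 for E2f8.

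At D7 the Mki67 values given above, 153 to 256 CPM in WT and 105 to 148 in Trem2-/-, did not overlap. Its log2 fold change for Trem2-/- vs WT was -0.53, with SE 0.38 and adjusted p = 0.818 by limma over the 4 groups and SE 0.16 and adjusted p = 0.184 by limma over the D7 libraries. E2f8 ranged over 15.9 to 25.4 CPM in WT D7 and 11.8 to 15.7 in Trem2-/- D7, the groups falling just short of overlap, with a log2 fold change of -0.56 (SE 0.38 and 0.15, adjusted p = 0.803 and 0.136, in the same order, by limma). Cenpf (chr1:189640606-189688086, minus strand), a kinetochore protein of late G2, was at 36.2, 19.99, 23.5 and 20.4 CPM in WT D7 and 14.1, 18.3, 19.04 and 15.2 in Trem2-/- D7, without overlap and with WT D7 replicate 1 the highest. Ndc80 (chr17:71496100-71526857, minus strand), which ties kinetochores to microtubules, was at 15.2, 13.3, 15.3 and 9.09 CPM in WT D7 and 7.79, 9.65, 9.91 and 9.93 in Trem2-/- D7, where WT D7 replicate 4 lay inside the Trem2-/- range. The log2 fold changes were -0.53 for Cenpf, -0.44 for Ndc80 and -0.36 for Cdc6, with adjusted p-values of 0.223, 0.257 and 0.349 by limma over the D7 libraries. Mki67, E2f8, Cenpf and Kif23 were the 4 genes without overlap at D7, all lower in Trem2-/-, and 4.78% of all genes were lower without overlap.

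At D0, 37 of 48 genes had the higher mean in Trem2-/- and 11 the lower, the median log2 fold change was 0.08, and 0 genes were without overlap, where 0.440% of all genes were higher and 0.539% lower without overlap. Pcna, Plk1 and Aurka had the smallest p-values. Plk1 (chr7:122159439-122169873, plus strand), polo-like kinase 1, was at 7.23, 36.99, 15.1 and 15.4 CPM in WT D0 and 24.3, 14.8, 39.1 and 10.8 in Trem2-/- D0, and Aurka (chr2:172356190-172370535, minus strand), the spindle pole kinase, at 8.13, 34.7, 16.6 and 14.1 and 23.1, 12.7, 39.6 and 12.9. The ranges covered each other for both, and the 95% interval of the log2 fold change was -0.55 to 1.15 for Plk1, -0.51 to 1.07 for Aurka and -0.35 to 0.17 for Pcna. The interval of Pcna did not reach the size of its injury change in WT, and those of Plk1 and Aurka did. These intervals use the error shared by all 4 groups. The median SD of a cell cycle gene was larger at D0 (0.783 in WT and 0.641 in Trem2-/-) than at D7 (0.314 and 0.183). For most of these genes the intervals are therefore likely too narrow for a comparison at D0.

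For 45 of 48 genes, the log2 fold change after injury was lower in Trem2-/- than in WT, and of these Ccnb1 and Prc1 were above 0 in both genotypes, and the interaction term of the fit tested this difference. By limma 0 genes were called, where 7.79% of all genes were. An unadjusted p under 0.05 was reached by 0 genes with limma, edgeR, voom or DESeq2, where 8.16% of all genes did with limma. The smallest p-values were those of Cenpe, Kif23 and Cenpf. Cenpe (chr3:135212537-135273611, plus strand), a kinetochore motor, was at 15.8, 70.6, 32.4 and 28.1 CPM in WT D0, 39.4, 30.3, 29.9 and 27.3 in WT D7, 44.4, 27.04, 69.7 and 23.1 in Trem2-/- D0 and 19.2, 28.7, 25.2 and 21.8 in Trem2-/- D7, with the D7 mice inside the D0 range in WT. Kif23 (chr9:61915905-61946774, minus strand), a motor of the midzone, was at 22.3, 68.9, 46.1 and 34.3 CPM in WT D0, 35.9, 33.4, 30.8 and 29.3 in WT D7, 56.3, 33.5, 75.03 and 31.6 in Trem2-/- D0 and 23.4, 28.7, 27.7 and 26.02 in Trem2-/- D7, and only the Trem2-/- groups were separate. Cenpf was at 7.47, 43.3, 17.5 and 16.7 CPM in WT D0 and 23.7, 13.1, 33.2 and 13.1 in Trem2-/- D0, which overlapped the D7 values given above. The log2 differences between the injury changes were -0.63 (SE 0.52) for Cenpe, -0.49 (SE 0.41) for Kif23 and -0.64 (SE 0.56) for Cenpf, with adjusted p-values of 0.782, 0.784 and 0.79. Without WT D0 replicate 2, 5 genes were called with the lower change in Trem2-/-, Mki67, Ccne1, Cdc6, Cenpe and Cenpf, where 8.11% of all genes were, a share near that of these genes.

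**Figure D4:**
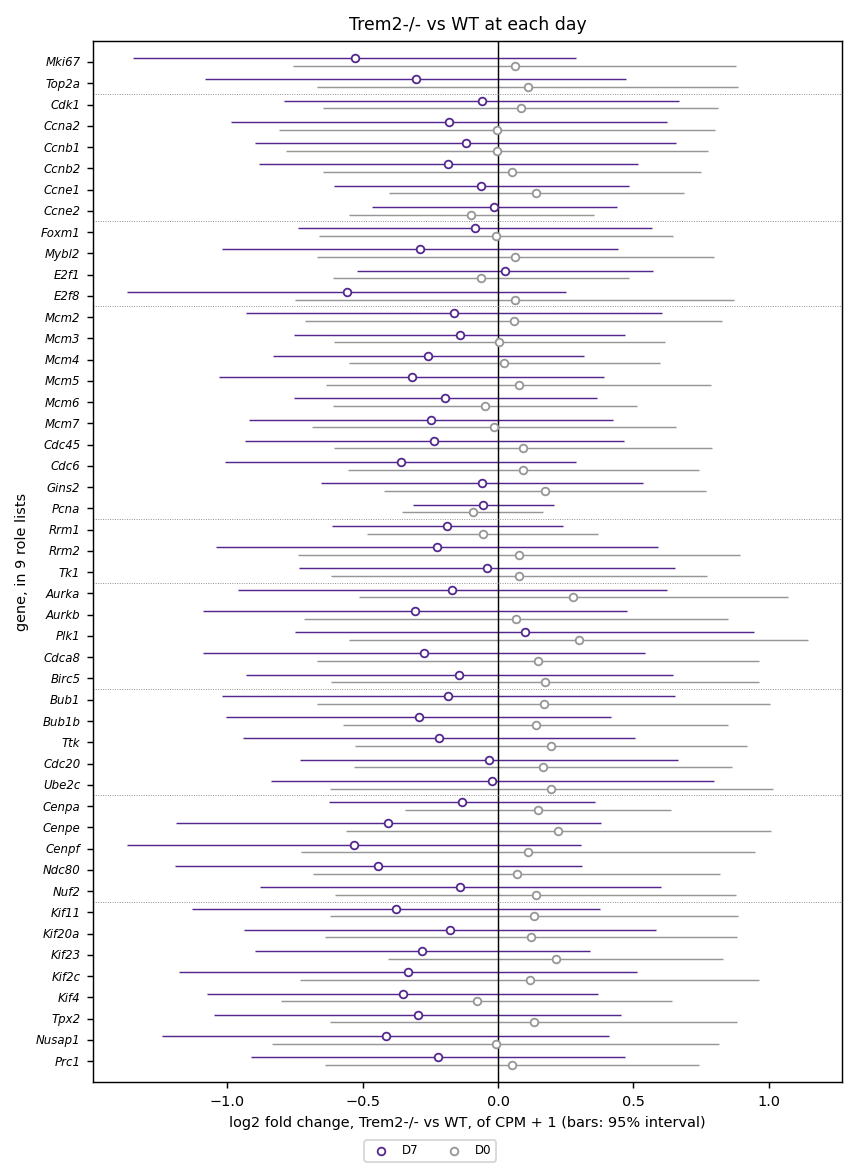
Log2 fold change of each of the 48 genes for Trem2-/- vs WT at D7 (purple) and at D0 (grey), with the 95% interval from limma over the 4 groups. The D7 points lie left of 0 for 46 of 48 genes and the D0 points right of 0 for 37, and every interval crosses 0.

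Other genes of the cycle were counted in the same way. Of all genes, 18.2% were called lower and 19.3% higher in WT, and 27.9% and 26.5% in Trem2-/-. Of 20 further S-phase genes, 18 were called lower in WT and 19 in Trem2-/-, with 0 higher and median log2 fold changes of -0.73 and -0.93. The 3 with the smallest p in Trem2-/- were Chaf1b, Mcm10 and Prim1. The log2 fold change of Chaf1b, a histone chaperone of the fork, was -0.72 (SE 0.19, adjusted p = 0.0142) in WT and -1.03 (SE 0.19, adjusted p = 0.000485) in Trem2-/-. That of Mcm10, an origin activator, was -0.88 (SE 0.28, adjusted p = 0.0305) and -1.47 (SE 0.28, adjusted p = 0.000572), and that of Prim1, a primase subunit, was -0.89 (SE 0.28, adjusted p = 0.0294) and -1.20 (SE 0.28, adjusted p = 0.00245). Of 34 further genes of G2 and mitosis, 7 were called lower in WT, a share near that of all genes, and 1 higher. In Trem2-/-, 12 were called lower and 1 higher, and the medians were -0.36 in WT and -0.59 in Trem2-/-. Pttg1, securin, and Cdc25b, an activator of Cdk1, were among those lower, with log2 fold changes of -0.46 (SE 0.16, adjusted p = 0.037) and -0.52 (SE 0.20, adjusted p = 0.0565) in WT and -0.58 (SE 0.16, adjusted p = 0.00569) and -0.78 (SE 0.20, adjusted p = 0.00387) in Trem2-/-.

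The gene called higher was Anln (chr9:22332012-22389188, minus strand), anillin, an actin-binding scaffold of the cleavage furrow. It was at 10.1, 41.2, 17.8 and 25.2 CPM in WT D0, 65.9, 55.1, 59.7 and 53.4 in WT D7, 25.4, 14.6, 35.2 and 13.4 in Trem2-/- D0 and 42.8, 62.6, 61.1 and 46.1 in Trem2-/- D7. All D7 mice were above all D0 mice of their genotype, and Anln rose by a log2 fold change of 1.44 (SE 0.34, adjusted p = 0.00784) in WT and 1.31 (SE 0.34, adjusted p = 0.00476) in Trem2-/-.

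Of 6 G1 cyclins and kinases, 2 were called lower in each genotype, Ccnd3, cyclin D3, and Cdk2, the partner of cyclin E, and Ccnd1, cyclin D1, was called higher in WT. Ccnd3 fell by a log2 fold change of -0.77 (SE 0.26, adjusted p = 0.0379) in WT and -1.14 (SE 0.26, adjusted p = 0.00187) in Trem2-/-. Cdk2 had -0.48 (SE 0.18, adjusted p = 0.0641) and -0.57 (SE 0.18, adjusted p = 0.0164), and Ccnd1 had 0.52 (SE 0.23, adjusted p = 0.102) and 0.50 (SE 0.23, adjusted p = 0.0854). Of 10 CDK inhibitors and pocket proteins, 3 were called lower and 2 higher in WT, and 4 lower and 2 higher in Trem2-/-. Those called higher were Cdkn2b and Cdkn2a, both described below. Of all genes, 18.2% were called lower and 19.3% higher in WT, and 27.9% and 26.5% in Trem2-/-. Cdkn2d, an inhibitor of the cyclin D kinases, fell. It was at 38.4, 56.5, 60.01 and 37.5 CPM in WT D0, 26.3, 28.7, 29.6 and 24.4 in WT D7, 62.6, 45.1, 75.3 and 45.4 in Trem2-/- D0 and 20.5, 21.02, 25.2 and 21.02 in Trem2-/- D7. Its groups did not overlap in either genotype, and the log2 fold changes were -0.77 (SE 0.18, adjusted p = 0.00695) and -1.31 (SE 0.18, adjusted p = 4.72e-05). Cdkn2b, whose product holds cells in G1, rose by a log2 fold change of 0.84 (SE 0.21, adjusted p = 0.0103) in WT and 1.28 (SE 0.21, adjusted p = 0.000181) in Trem2-/-. Cdkn2a, which acts likewise, passed the filter on low values through D7 libraries alone and is given by its levels, 0.0532 to 0.430 CPM in WT D0, 0.356 to 1.28 in WT D7, 0.00 to 0.316 in Trem2-/- D0 and 1.03 to 2.35 in Trem2-/- D7.

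As a description over the 16 libraries, the mean standardised level of the 48 genes was most like that of Kif22 (Pearson r = 0.986), Smc2 (0.985), Ncaph (0.984), Cdca3 (0.981), Dlgap5 (0.980), Ncapd2 (0.979), Fancd2 (0.979), Smc4 (0.975), Anp32b (0.974) and Tacc3 (0.974). The points share library, depth and group. The 48 genes had a median pairwise r of 0.888, and of 0.937 once the group means were removed. The gene least like the rest was Prc1 over the 16 libraries (r = 0.552) and Pcna with group means removed (r = 0.602).

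Markers of early myeloid and erythroid precursors moved with the cell cycle genes, both between mice of a group and with injury. Markers of other cell types went with these genes less closely or the other way, as given below. All 6 markers of early myeloid precursors (Elane, Mpo, Prtn3, Ctsg, Ms4a3 and Cebpe) were called lower after injury in both genotypes, with median log2 fold changes of -1.91 in WT and -2.53 in Trem2-/-, and none was at 0 in any library. Their summed level was 620.3, 2522, 2126 and 1279 CPM in WT D0, 236 to 552 in WT D7, 2455, 883, 4110.2 and 1078 in Trem2-/- D0 and 261 to 365 in Trem2-/- D7. WT D0 replicate 2 and Trem2-/- D0 replicate 3 had the highest sums of their groups and WT D0 replicate 1 the lowest, as for the cell cycle genes. All 11 erythroid precursor markers were called lower in both genotypes as well, with sums of 339, 1302, 454 and 503 CPM in WT D0, 188 to 327 in WT D7, 475 to 638 in Trem2-/- D0 and 134 to 227 in Trem2-/- D7, and none at 0.

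Of the 9 markers of pro-B and pre-B cells, 8 were called lower in each genotype and 1 was called higher in Trem2-/-, and their sum ran over 144 to 292 CPM in WT D0, 82.1 to 139 in WT D7, 126 to 216 in Trem2-/- D0 and 84.4 to 98.00 in Trem2-/- D7. All 5 neutrophil and all 6 general leukocyte markers were called lower, and the leukocyte sum ran over 2678 to 5222, 1514 to 3335, 3322 to 5728 and 1197 to 1501 CPM in the same order. Fibroblast markers were called higher for 6 of 7 and chondrocyte markers for 5 of 5, with fibroblast sums of 6181 to 49630.2 CPM in WT D0, 74349 to 114571 in WT D7, 5198 to 11098 in Trem2-/- D0 and 98258 to 138925 in Trem2-/- D7. Of 4 markers of monocytes and macrophages, 2 were called higher and 0 lower in WT (median log2 fold change 0.48), and 1 higher and 2 lower in Trem2-/- (median -0.23). Endothelial markers gave 0 calls of 6 in either genotype. Of 6 markers of T and NK cells, 4 were called lower and 1 higher in WT and 5 lower and 1 higher in Trem2-/-, with sums of 68.1 to 112, 146 to 200.1, 66.3 to 108 and 174 to 218 CPM in the same order. These sums were higher at D7 although the median log2 fold changes were -0.87 in WT and -1.15 in Trem2-/-. The gene called higher had log2 fold changes of 1.82 and 2.33. Of 5 skeletal muscle markers, 1 was called lower in WT and 4 in Trem2-/-. Beside all these marker counts, 18.2% of all genes were called lower and 19.3% higher in WT, and 27.9% and 26.5% in Trem2-/-. Near these shares were the 1 muscle marker lower in WT and the 1 T and NK marker higher in WT. So was the 1 marker of monocytes and macrophages higher in Trem2-/-. Over the 16 libraries with group means removed, the mean level of the 48 genes went with that of early myeloid precursors (r = 0.936) and erythroid precursors (0.820). It went against that of endothelial cells (-0.747), fibroblasts (-0.652) and chondrocytes (-0.522), the points again sharing library and depth. The r was 0.571 for pro-B and pre-B cells, 0.514 for neutrophils and 0.484 for all leukocytes. For monocytes and macrophages it was 0.311, for T and NK cells 0.233 and for skeletal muscle -0.366. At D7, 6 of 9 pro-B and pre-B markers, 5 of 6 leukocyte markers and 3 of 4 markers of monocytes and macrophages were called lower in Trem2-/- than in WT, beside 0 of 6 early myeloid and 1 of 11 erythroid markers, where 5.72% of all genes were called in either direction. None of these markers had an adjusted p under 0.05 by limma, the lowest being 0.287 among monocytes and macrophages. The part of these cell types in the levels of the cell cycle genes was not tested.

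**Figure D5:**
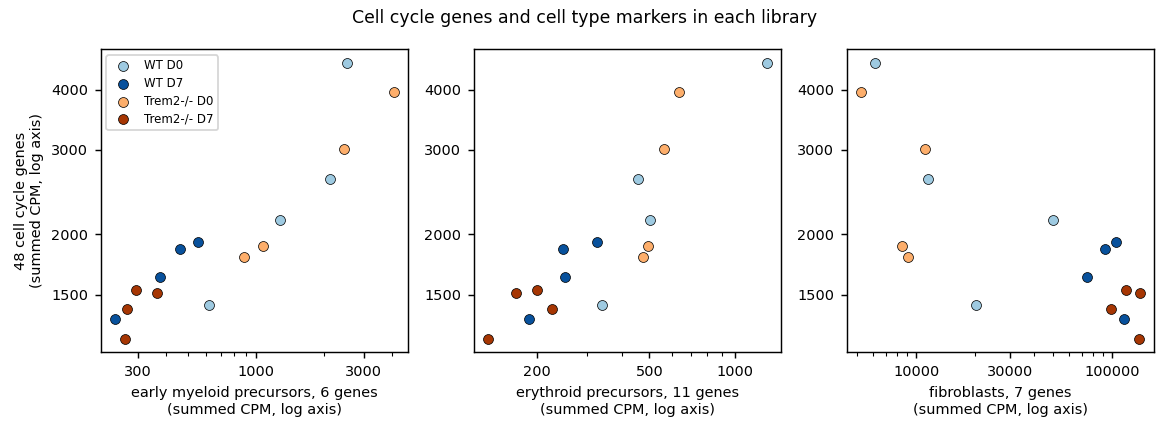
Summed CPM of the 48 cell cycle genes (vertical log axis) against the summed CPM of markers of early myeloid precursors, erythroid precursors and fibroblasts (horizontal log axes) in each of the 16 libraries, coloured by group. The libraries with the most cell cycle RNA, WT D0 replicate 2 and Trem2-/- D0 replicate 3, lie at the high end for both precursor lists and at the low end for fibroblasts.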

How the data were processed

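Bulk RNA-seq was done on knee joints, or cells from them, of 16 mice, grouped by the genotype and time in the sample labels. The deposited values are signal values on a CPM scale: the authors demultiplexed with bcl2fastq, checked quality with FastQC, aligned with STAR to mm10 (GRCm38), counted with featureCounts and scaled the counts by edgeR TMM factors. Tool versions, annotation and strand setting are not given in the sources used here. Dividing each value by the worth of 1 read gave whole reads for 100% of values within 0.01 reads. Depth was 11567073 to 32867818 reads, so the 3-read floor was 0.101 to 0.250 CPM, for counting error only. A duplicate row (1 gene) was dropped. The libraries are separate mice, and no pair of replicates agreed within sampling noise (lowest chi-square per degree of freedom 10.4).

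The fit was limma 3.58.1 in R 4.3.3 (lmFit, eBayes with trend, two-sided) on log2(CPM + 1), all 4 groups together, for the 13173 genes that reached 1 CPM in 4 or more of the 16 libraries. It was tested on simulated data in which genes varied independently and each had the same dispersion in every group. That test does not cover genes that move together or that spread more at D0, as the cell cycle genes did. Fold changes on this scale understate those of low genes. Count tests on the recovered reads (edgeR 4.0.16, voom, DESeq2 1.42.0), other pseudocounts, filters, scalings, a replicate block and left-out mice were alternatives. The members, the other gene and marker lists and the comparisons were chosen with earlier results of these data known. Per-mouse values are given for the gene of highest mean and that of smallest p in each role list, for the 5 of smallest p between genotypes at D7 and for the 3 at D0 and in the interaction, and others are summarised or named for their values. Gene coordinates are from GENCODE M21 (GRCm38), and promoter windows and sequences from RefSeq (GRCm38.p6), without the 8 members that had none. Sequence stretches of 75 bases were compared between annotated transcripts. Tyms and Uhrf1 were not analysed here.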

Additional observations from a re-analysis of the deposited data

Results flagged for a closer look

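In 8 of 244 groups of 4 mice, the gap between 1 mouse and the next, divided by the range of the group, was above Dixon's 95% limit, where chance gives about 12. In WT D0, replicate 2 had Ccne1 at 31.3 CPM and the others 10.5 to 13.6 (gap share 0.851). The other 7 were in Trem2-/- D7, the group with the smallest spread. Replicate 1 was low for Mcm6, at 59.6 CPM against 69.7 to 71.7 (0.831), and for Ndc80, at 7.79 against 9.65 to 9.93 (0.870), and high for Cdkn2b, at 5.07 against 3.51 to 3.75 (0.847). Replicate 2 was high for Kif2c, at 10.1 CPM against 6.67 to 7.11 (0.873), and replicate 3 for Cdkn2d, at 25.2 against 20.5 to 21.0 (0.882). Replicate 4 was high for Bub1, at 15.3 CPM against 12.7 to 13.0 (0.862), and for Chaf1b, at 9.84 against 8.62 to 8.75 (0.894).

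The injury change of Cdkn2d, a gene of the CDK inhibitor list, differed between genotypes by an unadjusted p of 0.0477 in limma. Its log2 fold change was -0.77 in WT and -1.31 in Trem2-/-, a difference of -0.54 (SE 0.25, adjusted p = 0.61).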

How the results depend on the processing

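Fits that left out 1 mouse gave 9 to 29 called genes for D7 vs D0 in WT (15 with all mice) and 18 to 32 in Trem2-/- (28 with all), with 3 to 19 and 13 to 27 having an adjusted p under 0.05. Between genotypes, 0 to 0 were called at D7 and 0 to 1 at D0, and the interaction 0 to 5. Among the other settings, 5 counts moved by more than 1.5 times. Fitting each pair of groups alone gave 8 called genes between genotypes at D7, and 4 that fell by adjusted p in WT (4.42% of all genes did). DESeq2 gave 15 of the latter (15.7%). Without Trem2-/- D0 replicates 1 and 3, a setting added after seeing the data, 9 genes were called in Trem2-/- (8 lower, 1 higher) and 5 had an adjusted p under 0.05. For each of these counts the cause was not tested.

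Foxm1 changed sign: its log2 fold change in WT was -0.039 by edgeR, -0.032 by DESeq2 and -0.00060 without WT D0 replicates 1 and 2 (also added later), against a range of -0.23 to 0.28 with 1 mouse left out. In Trem2-/- it was 0.45 without Trem2-/- D0 replicates 1 and 3, and -0.28 to 0.23 with 1 mouse left out. In the D0 genotype comparison, Plk1 and Aurka were each at -0.31 without Trem2-/- D0 replicates 1 and 3, and with 1 mouse left out Plk1 ran from -0.050 to 0.69, Aurka from -0.045 to 0.63 and Pcna from -0.17 to 0.012. Across single-gene values, 1022 of the values under settings that kept every mouse or added one of these exclusions held their direction and side of the threshold, 27 lost the call, 18 gained it and 6 reversed. With 1 mouse left out, 620 values held, 41 lost the call, 16 gained it and 11 reversed, a larger share of changes.

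The replicate numbers did not pair the samples, as same-numbered deviations correlated at -0.51 to 0.41. The fit with the replicate block gave 16 called genes in WT, 28 in Trem2-/-, and 9 and 23 with an adjusted p under 0.05, with 0 for the genotype comparisons and the interaction. With 4 mice a group and SDs of the size seen at D0, genotype differences in mitotic genes at D0 inside the intervals given above were not detectable. Those intervals use the error shared by all 4 groups, so somewhat larger differences at D0 could also have been missed.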
